A study of Mus musculus with 45 samples.

Results

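Transcripts of the neuropeptide Y system and of 4 further neuropeptides were followed in the nucleus accumbens of mice that drank alcohol or water. The 8 genes were chosen by symbol from the 24421 gene symbols of the count files. They were Npy, its receptor genes Npy1r, Npy2r and Npy5r, and the peptide precursor genes Sst, Cartpt, Cck and Nts. All 8 were among the 15852 genes that passed the filter on low counts.

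The tissue came as punches of 45 mice, all female, of the HDID-1 line (generation label S35.G37), which was selectively bred for drinking in the dark to high blood alcohol levels. Every mouse, controls included, received 0.5 uL of each of 2 viruses on both sides, rAAV2/5-CMV-Cre-GFP and rAAV2-hSyn-DIO-hM3Dq-mCherry, so there was no group without the hM3Dq receptor. hM3Dq is an engineered muscarinic receptor that is switched on by clozapine N-oxide (CNO). The hSyn promoter drives it in neurons, and only in cells that also received Cre. Mice had daily access to ethanol or to water for 6 weeks. All had vehicle in week 1 and week 6. In weeks 2 to 5 they had either CNO at 1 mg/kg or vehicle. The groups were alcohol with CNO (12 mice), alcohol with vehicle (11 mice), water with CNO (11 mice) and water with vehicle (11 mice), with 1 library per mouse. The age of the mice is not given in the sources used here.

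Neuropeptides are cut from larger precursors in dense core vesicles, released on strong firing, and sensed by G protein-coupled receptors. In the striatum, neuropeptide Y and somatostatin are made by the same sparse class of GABA interneurons, which also makes nitric oxide. Cocaine and amphetamine regulated transcript and neurotensin are known from subsets of accumbens neurons and their inputs, while cholecystokinin is abundant in cortical pyramidal neurons. Neuropeptide Y is known in rodents for lowering anxiety-like behaviour and for its ties to alcohol intake.

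Promoter sequence was available for all 8 genes (RefSeq, build GRCm38.p6, 250 bases before and 50 after the annotated start). It was searched on both strands for the cyclic AMP response element TGACGTCA and for its shorter form TGACG, which is contained in it. The full element was found in 2 of the 8, Sst and Cartpt, and the shorter form alone in 2, Cck and Nts. Of 32851 mouse promoters of this length, 1.79% held TGACGTCA and 20.8% held TGACG. The sequences of Sst and Npy are shown because their transcripts varied together most closely, and those of Cartpt and Cck because they hold the full and the shorter element. Capitals mark the element. In Sst it starts 48 bases before the annotated start and in Cartpt 112 bases before it. The shorter form of Cck lies 47 bases before the start and reads CGTCA on the strand shown. Neither form was found in the Npy window. A match of letters is a description and was not tested for binding.
Sst promoter, chr16:23890795-23891094, minus strand: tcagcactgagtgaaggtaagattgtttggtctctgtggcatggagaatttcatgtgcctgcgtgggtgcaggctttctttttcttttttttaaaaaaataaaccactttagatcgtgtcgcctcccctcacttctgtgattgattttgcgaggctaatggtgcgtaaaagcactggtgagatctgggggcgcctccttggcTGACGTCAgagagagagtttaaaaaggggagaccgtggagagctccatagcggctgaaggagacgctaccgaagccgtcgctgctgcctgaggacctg
Npy promoter, chr6:49822460-49822759, plus strand: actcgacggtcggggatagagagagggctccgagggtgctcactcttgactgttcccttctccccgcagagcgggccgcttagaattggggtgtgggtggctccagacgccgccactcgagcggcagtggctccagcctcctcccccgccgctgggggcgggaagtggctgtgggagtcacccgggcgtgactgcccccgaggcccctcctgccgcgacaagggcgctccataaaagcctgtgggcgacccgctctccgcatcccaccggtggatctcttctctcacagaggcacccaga
Cartpt promoter, chr13:99900634-99900933, minus strand: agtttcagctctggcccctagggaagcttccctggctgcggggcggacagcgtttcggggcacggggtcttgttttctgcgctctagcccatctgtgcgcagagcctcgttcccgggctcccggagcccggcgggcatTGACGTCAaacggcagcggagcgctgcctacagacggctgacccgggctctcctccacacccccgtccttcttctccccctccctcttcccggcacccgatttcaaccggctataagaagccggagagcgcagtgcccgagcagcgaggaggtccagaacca
Cck promoter, chr9:121495645-121495944, minus strand: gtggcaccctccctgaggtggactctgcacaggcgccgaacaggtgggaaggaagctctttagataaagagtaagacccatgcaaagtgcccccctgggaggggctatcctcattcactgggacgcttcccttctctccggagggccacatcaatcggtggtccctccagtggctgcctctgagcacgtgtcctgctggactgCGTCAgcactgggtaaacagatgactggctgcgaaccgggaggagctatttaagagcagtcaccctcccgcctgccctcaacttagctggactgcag

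In the annotation of the same build the 8 genes lie on 7 chromosomes. Npy1r (chr8:66697192-66706792, plus strand) and Npy5r (chr8:66679965-66688128, minus strand) are neighbours that point away from each other, 9063 bases apart. No exon of the 8 genes overlapped an exon of another annotated gene.

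The libraries held a median of 30.9 M reads in genes (26.8 M at the lowest and 39.5 M at the highest). The number of reads behind a value was lowest for Npy5r, at 176 to 296 reads per library, and highest for Sst, at 4963 to 9786. Levels are CPM, read counts scaled to the reads in genes with TMM factors. Medium spiny neuron markers were present, with Drd1 at a mean of 243 CPM and Drd2 at 122 CPM. They mark striatal tissue and do not check the nucleus accumbens label itself. A cortical marker, the vesicular glutamate transporter gene Slc17a7, ranged from 38.1 to 641 CPM over the same libraries. In 2 libraries, alcohol vehicle replicates 5 and 10, MHC class II and antibody genes stood far above the rest, with H2-Aa at 263 and 62.1 CPM against a median of 2.04 CPM. None of the 8 genes was at the highest or the lowest value of its group in either library. In 3 libraries, alcohol CNO replicates 2 and 12 and water CNO replicate 1, the cortical score lay between 2.50 and 2.76, against 3.49 to 5.55 in the other 42. This score is the mean log2 CPM of 10 cortical glutamatergic markers. These 3 libraries were also low in Cck, at 14.1, 9.38 and 10.9 CPM.

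Per kilobase of exon, Sst was the most abundant of the 8 transcripts, with a mean of 304 CPM per kb (228 to 385 over 45 libraries). Npy followed at 112 CPM per kb (89.7 to 140), and the ranges of these top members did not meet. Cck at 38.0 and Cartpt at 33.8 CPM per kb came next, and their ranges overlapped widely, from 7.18 to 79.2 and from 24.1 to 50.6. Nts had a mean of 14.8 CPM per kb. The receptor transcripts were the lowest, with Npy2r at 11.5, Npy1r at 5.24 and Npy5r at 2.94 CPM per kb. The range of Npy2r (7.89 to 15.4) overlapped that of Nts (7.01 to 22.5) and lay above that of Npy1r (3.72 to 7.67), which began just above the highest Npy5r value of 3.62.

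None of the 8 genes passed an adjusted p of 0.05 (edgeR quasi-likelihood test, Benjamini-Hochberg over all 15852 genes) in any of 7 contrasts. The share of all tested genes that passed was 0% in the 2 comparisons of alcohol with water, under vehicle and under CNO, and 0% when these were averaged. CNO against vehicle gave 0.871% among alcohol drinkers, 0.0694% among water drinkers and 0.889% averaged over fluids. The interaction of fluid and CNO gave 0%. The number of genes behind these shares depended on the setting. The 138 genes called for CNO in alcohol drinkers became 0 with S-number block as a covariate (8 blocks of consecutive S numbers in the sample titles), without alcohol vehicle replicates 5 and 10, with only the groups compared in the fit and with limma voom. The 0 for alcohol averaged became 98 with the no-feature share as a covariate. The count among the 8 was 0 under each of these settings. At an unadjusted p under 0.05 in the main edgeR fit, the 8 genes gave 0 calls in each of the 3 contrasts of alcohol with water. CNO gave 0 in alcohol drinkers, 1 in water drinkers (Npy2r) and 2 when averaged (Npy1r and Npy2r), and the interaction gave 1 (Npy5r). Over all tested genes between 3.13% (the interaction) and 12.0% (alcohol averaged) lay under that unadjusted value. DESeq2 and limma voom also called 0 of the 8 in every contrast after adjustment. The unadjusted counts depended on the setting. Beyond the main fit, limma voom put Sst and Cck under 0.05 for alcohol under CNO and Cck for alcohol averaged. It also put Npy1r there for CNO in alcohol drinkers, where the main edgeR fit gave an unadjusted p of 0.052. In edgeR, Npy1r fell under 0.05 in that contrast with the cortical score or the no-feature share as a covariate. The same held without alcohol vehicle replicates 5 and 10, and without the 3 libraries of low cortical score. Npy5r fell under 0.05 in edgeR for alcohol under vehicle with the cortical score as a covariate, and without the 3 libraries of low cortical score. In bulk tissue, fewer cells of a type and less RNA per cell cannot be told apart.

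**Figure D1:**
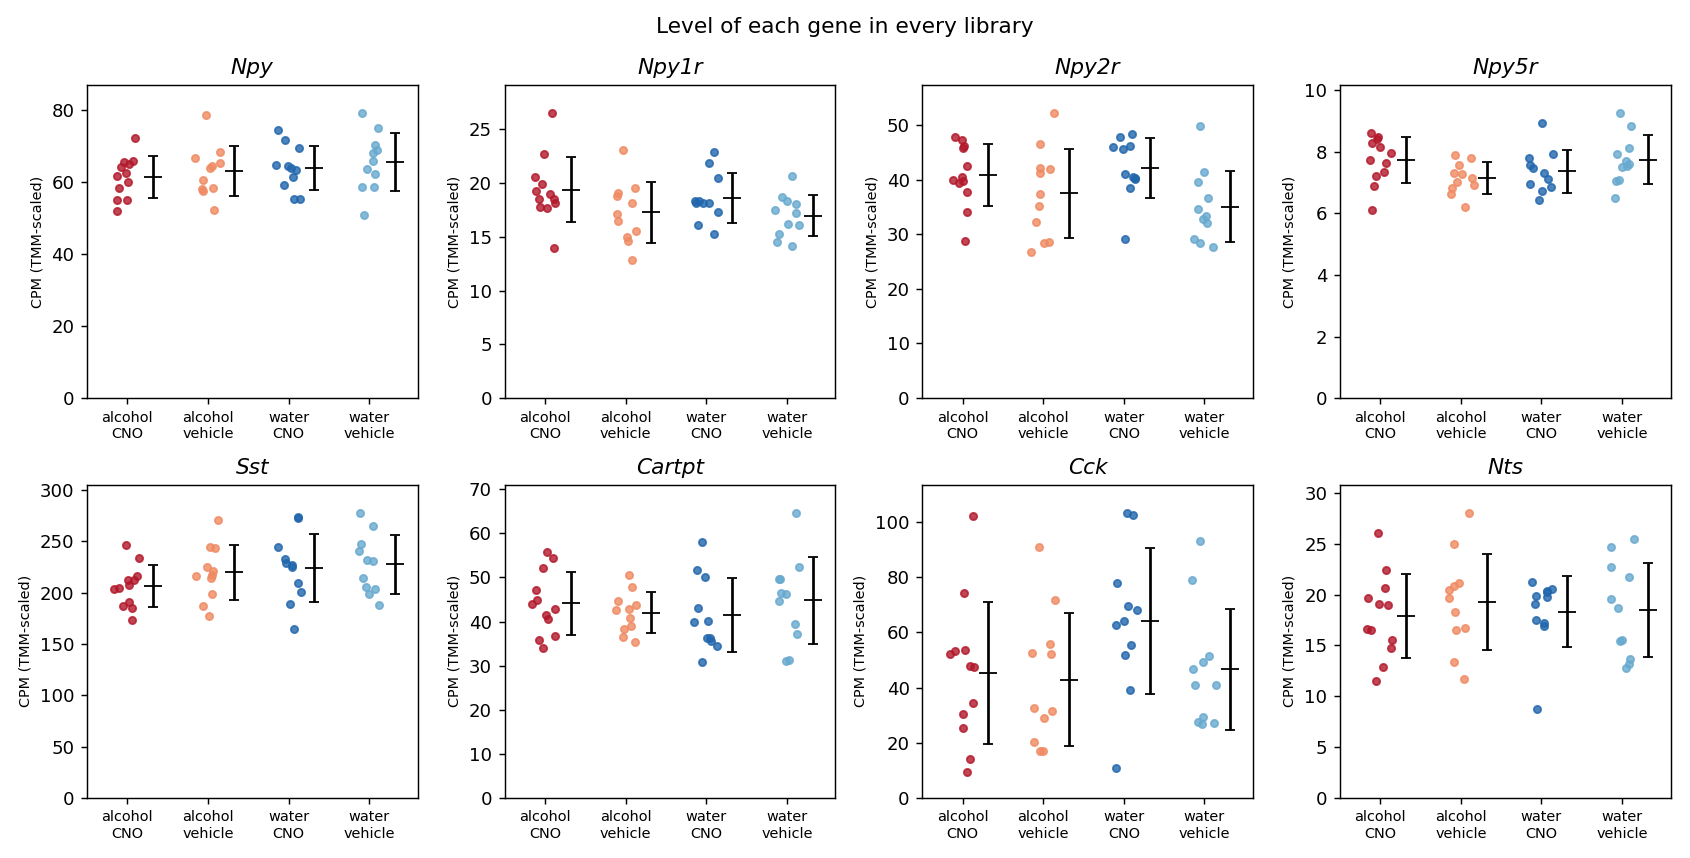
Level of each of the 8 genes in CPM (vertical axes, from 0) in every library, by group, with 1 point per mouse and a bar at the group mean with its SD. The 4 groups overlap for every gene, and Cck spreads from 9.38 to 103 CPM.

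Among the peptides, Npy itself was at 51.8, 62.1 and 72.3 CPM (lowest, median and highest) in alcohol CNO mice and at 52.2, 63.8 and 78.6 CPM in alcohol vehicle mice. Water CNO mice had 55.2, 64.0 and 74.5 CPM and water vehicle mice 50.8, 65.8 and 79.1 CPM. The 4 groups covered nearly the same range. Averaged over treatments, Npy was 0.961-fold in alcohol relative to water drinkers, with a 95% interval of 0.903 to 1.02 (log2 difference -0.06 ± 0.04, SE; adjusted p = 0.63). Averaged over fluids, the CNO to vehicle ratio was 0.975 (0.916 to 1.04; log2 difference -0.04 ± 0.04; adjusted p = 0.90). The difference of the CNO response between drinkers was a log2 value of 0.00 ± 0.09 (95% interval -0.18 to 0.18).

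Sst, the somatostatin precursor, was at 173, 206 and 246 CPM (lowest, median and highest) in alcohol CNO mice and at 177, 217 and 271 CPM in alcohol vehicle mice. It was at 164, 227 and 274 CPM in water CNO mice and at 188, 231 and 278 CPM in water vehicle mice. All 4 groups overlapped, and the lowest mean was that of alcohol CNO mice, 206 CPM ± 20.7 (SD, n = 12), against 228 CPM ± 28.5 (SD, n = 11) in water vehicle mice. Relative to water CNO mice, Sst in alcohol CNO mice was 0.919-fold (95% interval 0.830 to 1.02; log2 difference -0.12 ± 0.07; adjusted p = 0.81). Averaged over treatments the alcohol to water ratio was 0.942 (0.876 to 1.01; adjusted p = 0.51).

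Cartpt, the precursor of the CART peptides, had a lowest, median and highest level of 34.1, 43.5 and 55.9 CPM in alcohol CNO mice and of 35.3, 42.5 and 50.6 CPM in alcohol vehicle mice. The same values were 30.8, 39.9 and 58.2 CPM in water CNO mice and 31.1, 46.3 and 64.6 CPM in water vehicle mice. The alcohol groups lay inside the ranges of the water groups. Cartpt averaged over treatments was 1.00-fold in alcohol drinkers (95% interval 0.902 to 1.11), and for CNO averaged over fluids 0.987-fold (0.891 to 1.09). The adjusted p was 0.98 for CNO and above that for alcohol.

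Nts, the neurotensin precursor, was at 11.5, 17.8 and 26.1 CPM (lowest, median and highest) in alcohol CNO mice and at 11.7, 19.7 and 28.0 CPM in alcohol vehicle mice. It was at 8.75, 19.8 and 21.2 CPM in water CNO mice and at 12.8, 18.7 and 25.4 CPM in water vehicle mice. The groups overlapped throughout. The alcohol to water ratio averaged over treatments was 1.01 (95% interval 0.877 to 1.16; adjusted p = 0.97), and the CNO to vehicle ratio averaged over fluids was 0.959 (0.834 to 1.10; adjusted p = 0.94).

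Cck, the cholecystokinin precursor, was the most variable of the 8. Its levels were 9.38, 47.6 and 102 CPM (lowest, median and highest) in alcohol CNO mice and 16.9, 32.7 and 91.1 CPM in alcohol vehicle mice. They were 10.9, 64.0 and 103 CPM in water CNO mice and 26.9, 41.0 and 93.3 CPM in water vehicle mice. Low and high libraries occurred in every group, and the highest library held 11.0 times the lowest. The mean was 64.2 CPM ± 26.3 (SD, n = 11) in water CNO mice and between 42.8 and 46.6 CPM in the other groups. CNO in water drinkers gave a ratio of 1.38 with a 95% interval of 0.875 to 2.17 (log2 difference 0.46 ± 0.32; adjusted p = 0.86). Alcohol under CNO gave 0.706 (0.453 to 1.10; log2 difference -0.50 ± 0.32; adjusted p = 0.81).

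The cortical markers differed in the same direction as Cck between these groups. All 10 had a positive log2 difference for CNO in water drinkers, with a median of 0.26, and 9 of 10 a negative one for alcohol under CNO, with a median of -0.35, though 0 of 10 passed the test in either (edgeR, 0 at an unadjusted p under 0.05). Over all tested genes the medians of these contrasts were 0.00. Other marker lists were also of 1 sign for CNO in water drinkers, with positive differences for 7 of 7 oligodendrocyte and 7 of 7 neighbouring region markers. The differences were negative for 12 of 12 medium spiny neuron, 6 of 6 microglia and 5 of 5 ependymal markers, and 0 genes of these lists passed the test. The cortical score had a range of 2.50 to 5.55 in water CNO mice, of 3.87 to 5.05 in water vehicle mice and of 2.56 to 5.21 in alcohol CNO mice. With the cortical score as a covariate the log2 difference of Cck was 0.25 (unadjusted p = 0.094) for CNO in water drinkers and -0.16 (unadjusted p = 0.28) for alcohol under CNO. Without the 3 libraries of low cortical score the Cck log2 difference was 0.43 for CNO averaged over fluids, against 0.27 ± 0.23 (adjusted p = 0.82) in all 45, and 0.57 for CNO in water drinkers. All 3 were CNO mice and the lowest of the 45 in Cck, so leaving them out had to raise these differences, and no test of the higher values is given.

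Npy1r, the gene of the postsynaptic Y1 receptor, was at 14.0, 18.8 and 26.5 CPM (lowest, median and highest) in alcohol CNO mice and at 12.8, 17.1 and 23.1 CPM in alcohol vehicle mice. Water CNO mice had 15.2, 18.1 and 22.9 CPM and water vehicle mice 14.2, 17.2 and 20.6 CPM. Both CNO groups had a higher mean than the vehicle group of the same fluid, 19.4 against 17.3 CPM and 18.6 against 17.0 CPM, and the groups overlapped. The CNO to vehicle ratio was 1.12 in alcohol drinkers (edgeR, unadjusted p = 0.052, adjusted p = 0.69). In water drinkers it was 1.10 (edgeR, unadjusted p = 0.12, adjusted p = 0.86). Averaged over fluids the CNO to vehicle ratio was 1.11 (95% interval 1.02 to 1.20; log2 difference 0.15 ± 0.06; unadjusted p = 0.015), and the adjusted p was 0.34. Averaged over treatments, the alcohol to water ratio was 1.03 (0.948 to 1.12; adjusted p = 0.82).

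Npy2r encodes the Y2 receptor, which acts largely as a presynaptic autoreceptor. Its level was 28.8, 40.2 and 47.8 CPM (lowest, median and highest) in alcohol CNO mice and 26.7, 37.4 and 52.1 CPM in alcohol vehicle mice. Water CNO mice had 29.1, 40.9 and 48.3 CPM and water vehicle mice 27.7, 33.4 and 49.8 CPM. The medians of both CNO groups lay above those of both vehicle groups, while the highest value of each fluid belonged to a vehicle mouse. The CNO to vehicle ratio averaged over fluids was 1.14 (95% interval 1.03 to 1.27; log2 difference 0.19 ± 0.07; unadjusted p = 0.0099), with an adjusted p of 0.28. It was 1.20 in water drinkers (1.04 to 1.39; unadjusted p = 0.014, adjusted p = 0.86) and 1.09 in alcohol drinkers (0.947 to 1.25; adjusted p = 0.996). The difference between these responses was a log2 value of -0.14 ± 0.14 (adjusted p = 0.98).

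Npy5r, the gene of the Y5 receptor known for its part in feeding, was at 6.11, 7.84 and 8.62 CPM (lowest, median and highest) in alcohol CNO mice and at 6.21, 7.15 and 7.92 CPM in alcohol vehicle mice. It was at 6.44, 7.32 and 8.95 CPM in water CNO mice and at 6.50, 7.60 and 9.25 CPM in water vehicle mice. The mean was higher under CNO in alcohol drinkers, 7.74 against 7.15 CPM, and lower under CNO in water drinkers, 7.38 against 7.74 CPM, with all groups overlapping. The interaction was a log2 difference of 0.18 ± 0.08 (95% interval 0.02 to 0.35; unadjusted p = 0.031), with an adjusted p of 0.98. Adding S-number block to the fit gave 0.17 with an unadjusted p of 0.055.

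**Figure D2:**
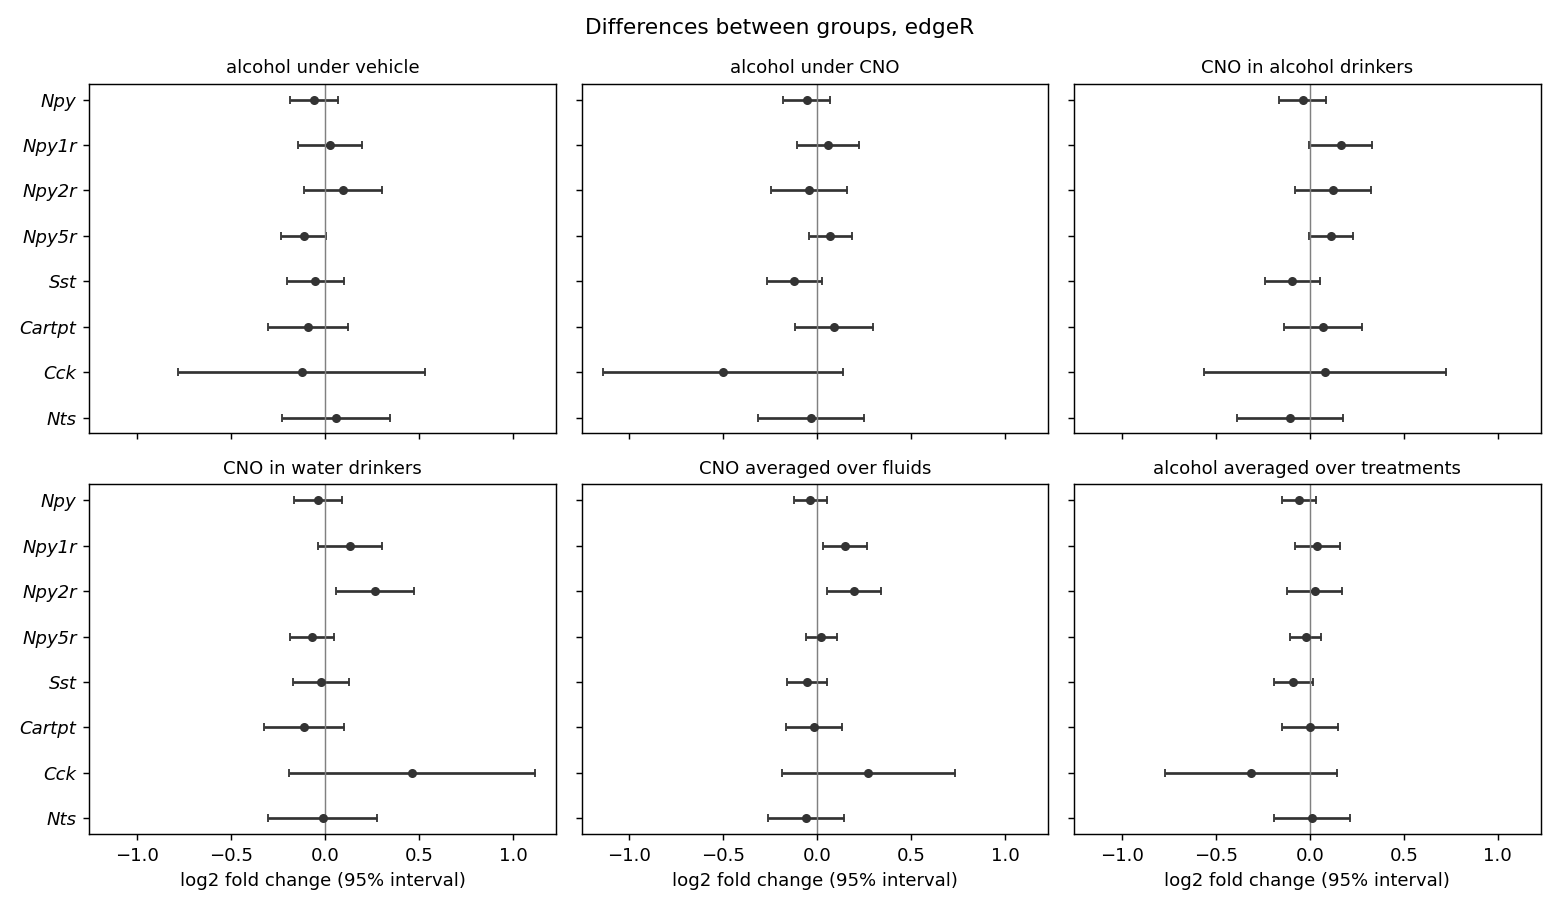
Log2 fold change (horizontal axis) of each of the 8 genes in each contrast except the interaction of fluid and CNO, with bars for the 95% interval from the edgeR fit. Intervals are narrow for Npy, Sst and Npy5r and widest for Cck, and no gene passed the adjusted threshold.

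The width of these intervals followed the spread between mice of the same group. The SD of log2 CPM within groups was 0.13 for Npy5r, 0.15 for Npy, 0.18 for Sst and 0.20 for Npy1r. It was 0.25 for both Npy2r and Cartpt, 0.36 for Nts and 0.84 for Cck. Among all tested genes these values ranked from the 39.9 percentile (Npy5r) to the 98.3 percentile (Cck), with Npy at 49.1 and Nts at 81.8. For 7 of the 8 genes, all but Cck, the 95% interval of the alcohol difference averaged over treatments stayed between ratios of 0.876 (Sst) and 1.16 (Nts). For Cck it ran from 0.586 to 1.11. In data simulated from these libraries, a 1.25-fold change was recovered for 74% (vehicle) and 68% (CNO) of changed genes in the alcohol contrasts. It was recovered for 70% (alcohol) and 72% (water) in the CNO contrasts, and for 46% in the interaction. There, 50 genes at each of 1.25, 1.5, 2 and 4-fold were changed at once, none of them of low count. So many changes ease the adjusted threshold, which is stricter in a real contrast with 0 calls. These shares are therefore not the power for the 8 genes.

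Between mice of the same group, several of the transcripts varied together. Correlations were computed on log2 CPM with the group mean removed over 45 libraries, for 28 pairs of the 8 genes and for 96 pairs of a gene with a list score. Permutation tests within groups were adjusted over all 124. After adjustment 5 of 28 gene pairs passed, 4 positive and 1 negative, and 9 of 96 pairs with a list score. The smallest p that the 100000 permutations can give is 1e-05, which adjusts to 0.00031.

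Npy and Sst gave the highest r of the 28 pairs, with a Pearson r of 0.85 (permutation test, adjusted p = 0.00031) and a Spearman rho of 0.86 (adjusted p = 0.00041). Pearson r was 0.749 in alcohol CNO, 0.825 in alcohol vehicle, 0.916 in water CNO and 0.927 in water vehicle mice. Without the 2 libraries farthest from the Npy median it was 0.83. The reading of the S numbers as blocks is not stated in the labels. In the 5 blocks of at least 6 libraries r lay between 0.604 and 0.952. The Sst to Npy ratio of CPM was accordingly narrow, 3.45 ± 0.22 (SD, n = 45), with a range of 2.90 to 3.95, and group means of 3.36, 3.49, 3.50 and 3.48 in the order of groups above. Both transcripts were lower in libraries with more reads outside annotated features, at r = -0.42 for Npy (permutation test, rho = -0.42, adjusted p = 0.032) and r = -0.48 for Sst (rho = -0.48, adjusted p = 0.013, over 8 tests). Cck was lower there too, at r = -0.35 (rho = -0.40, permutation test, adjusted p = 0.039), and none of the remaining genes passed. With the share of such reads and the cortical score both removed, the Npy and Sst r was 0.79 (permutation test, adjusted p = 0.0012).

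By Spearman rho, Sst was also the gene most like Npy among 13212 genes, and Npy the gene most like Sst. Next to Npy stood Gde1, a glycerophosphodiester phosphodiesterase gene (rho 0.742), and Ephx4, an epoxide hydrolase gene (0.739). Next to Sst came Nhp2, of the box H/ACA ribonucleoproteins (0.786), and Brsk1, a brain kinase gene (0.783). The score of 15 markers of several interneuron classes had r = 0.05 with Npy (rho 0.07, permutation test, adjusted p = 0.91) and r = 0.16 with Sst (rho 0.22, adjusted p = 0.57). It holds Nos1 and Chodl of the class that makes both peptides, but also genes of cholinergic (Chat, Slc5a7) and other (Pvalb, Th, Calb2) interneurons and the general GABA genes Gad1 and Gad2, so it does not measure that class alone.

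**Figure D3:**
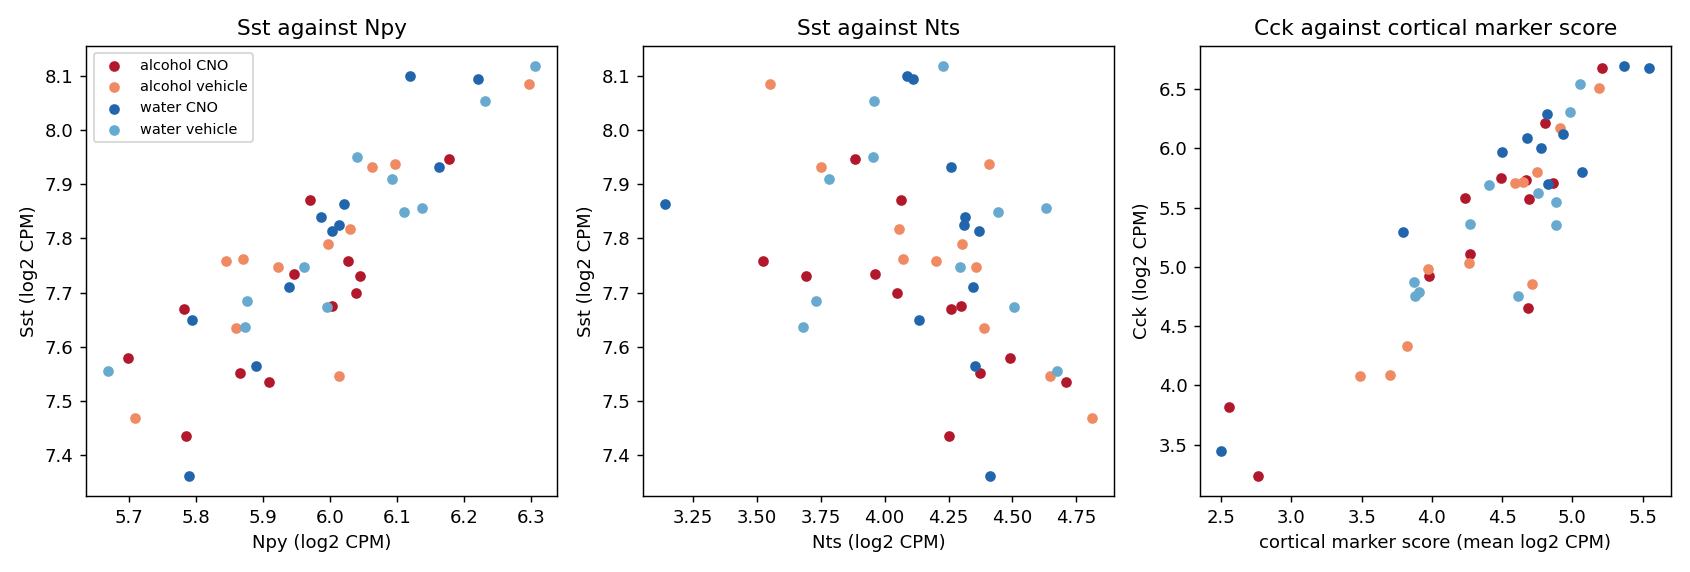
Log2 CPM of gene pairs and of Cck against the cortical score, with 1 point per library coloured by group. Npy and Sst rise together in each group, Sst and Nts run opposite, and 3 libraries lie low and apart for Cck and the cortical score.

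Sst and Nts were the one pair with a negative relation past the threshold, at r = -0.48 and rho = -0.57 (permutation test, adjusted p = 0.018 and 0.0019). Within groups r was -0.644 in alcohol CNO, -0.861 in alcohol vehicle, -0.309 in water CNO and -0.171 in water vehicle mice. Without the 2 libraries farthest from the Sst median it was -0.43. With the no-feature share and the cortical score both removed, the pair no longer passed the threshold. Nts was not past the threshold with Npy (r = -0.38, rho = -0.39, adjusted p = 0.086 by permutation). With the S-number block mean also removed, r was -0.44 (permutation test, adjusted p = 0.021). That p-value is too small, because the blocks were not fitted again in the permutations. The genes most like Nts were Pld5 (rho 0.595), Dab2 (0.595), an endocytic adaptor gene, and Slc17a8 (0.594), the gene of the vesicular glutamate transporter VGLUT3. These rho are the highest of 13212 and were not tested against the highest that chance gives.

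Cck rose with Sst (r = 0.59, rho = 0.61, permutation test, adjusted p = 0.00074), Npy1r (r = 0.50, rho = 0.59, adjusted p = 0.013) and Npy (r = 0.43, rho = 0.42, adjusted p = 0.027). Within groups these r ran from 0.488 to 0.837, from 0.239 to 0.711 and from 0.150 to 0.759, all positive. Without the 2 libraries farthest from the median of the partner they were 0.59, 0.47 and 0.36. Over the blocks of at least 6 libraries the Cck and Npy1r r ran from -0.333 to 0.950, while the other 2 pairs were positive in every block. Leaving out the 3 libraries of low cortical score gave 0.62, 0.56 and 0.54. With the no-feature share and the cortical score removed, r was 0.25 (adjusted p = 0.44) with Sst, 0.56 (adjusted p = 0.011) with Npy1r and 0.11 (adjusted p = 0.83) with Npy.

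Among the 12 list scores, Cck had its highest r with the cortical score. In the 42 libraries outside the low 3, r was 0.82 (permutation test, adjusted p = 0.00041), and with them 0.90 (rho 0.82). Within groups r was between 0.771 and 0.955. Of the 9 cortical markers that were at a mean log2 CPM of 1 or more, 8 had a rho of 0.495 to 0.929 with Cck, led by Slc17a7 (0.929), Tbr1 (0.910) and Neurod2 (0.903), and Cux2 had a rho of -0.01. The genes most like Cck were Arhgap15 (rho 0.935), a Rac regulator, Slc17a7 (0.929) and Cnih3 (0.922), an AMPA receptor auxiliary subunit gene. Against the score of 12 medium spiny neuron markers Cck ran opposite, at r = -0.59 (rho = -0.52, permutation test, adjusted p = 0.0014) in all libraries and -0.43 (adjusted p = 0.082) without the low 3.

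Sst also followed the cortical score (r = 0.52, rho = 0.54, permutation test, adjusted p = 0.0064) and ran opposite to the score of 5 blood vessel markers (r = -0.52, rho = -0.56, adjusted p = 0.010). Npy1r ran opposite to the blood vessel score as well (r = -0.42, rho = -0.43, permutation test, adjusted p = 0.028). Within groups the ranges of these r were 0.286 to 0.710, -0.790 to -0.243 and -0.819 to -0.179. Npy lay near the threshold with the cortical score, at r = 0.39 (adjusted p = 0.051) and rho = 0.45 (adjusted p = 0.026, permutation test), and without the 3 libraries of low cortical score at r = 0.55 (adjusted p = 0.0043). With the blood vessel score Npy had r = -0.37 (permutation test, adjusted p = 0.11) and rho = -0.43 (adjusted p = 0.040). Beside the covariate values above, the part of cortical and vessel tissue in the levels of Npy, Sst and Npy1r was not tested. The genes most like Npy1r were Tmem200c (rho 0.736) and the transcription factor genes Mef2c (0.710) and Nr2f1 (0.706).

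Npy2r, Npy5r and Cartpt passed the threshold by Pearson r with none of the other members and with no list score. With S-number block as a covariate, Npy2r had r = -0.44 with Cck (permutation test, adjusted p = 0.016) and -0.47 with the cortical score (adjusted p = 0.0077). It then had r = 0.51 with the medium spiny neuron score (permutation test, adjusted p = 0.0091), and Cartpt had r = 0.43 with Nts (adjusted p = 0.031). The p-values under this setting are too small, because the blocks were not fitted again in the permutations. They therefore do not show that these pairs varied together. The neighbouring genes Npy1r and Npy5r had r = 0.39 (rho = 0.29, permutation test, adjusted p = 0.069). They passed without the 3 libraries of low cortical score (r = 0.49, permutation test, adjusted p = 0.020). With S-number block as a covariate r was 0.41 (permutation test, adjusted p = 0.044, too small in the same way). Closest to Npy2r were Ash1l, a histone methyltransferase gene (rho 0.734), Rfx3, a transcription factor gene (0.720), and Snx27, an endosomal sorting gene (0.709). Closest to Npy5r were Esrra (rho 0.543), Xrcc6 (0.482) and Jsrp1 (0.480), all weaker than those of the other members. Closest to Cartpt were Mrap2, a melanocortin receptor accessory gene (rho 0.721), Kcnip1, a potassium channel interacting protein gene (0.719), and Nrip2 (0.685).

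**Figure D4:**
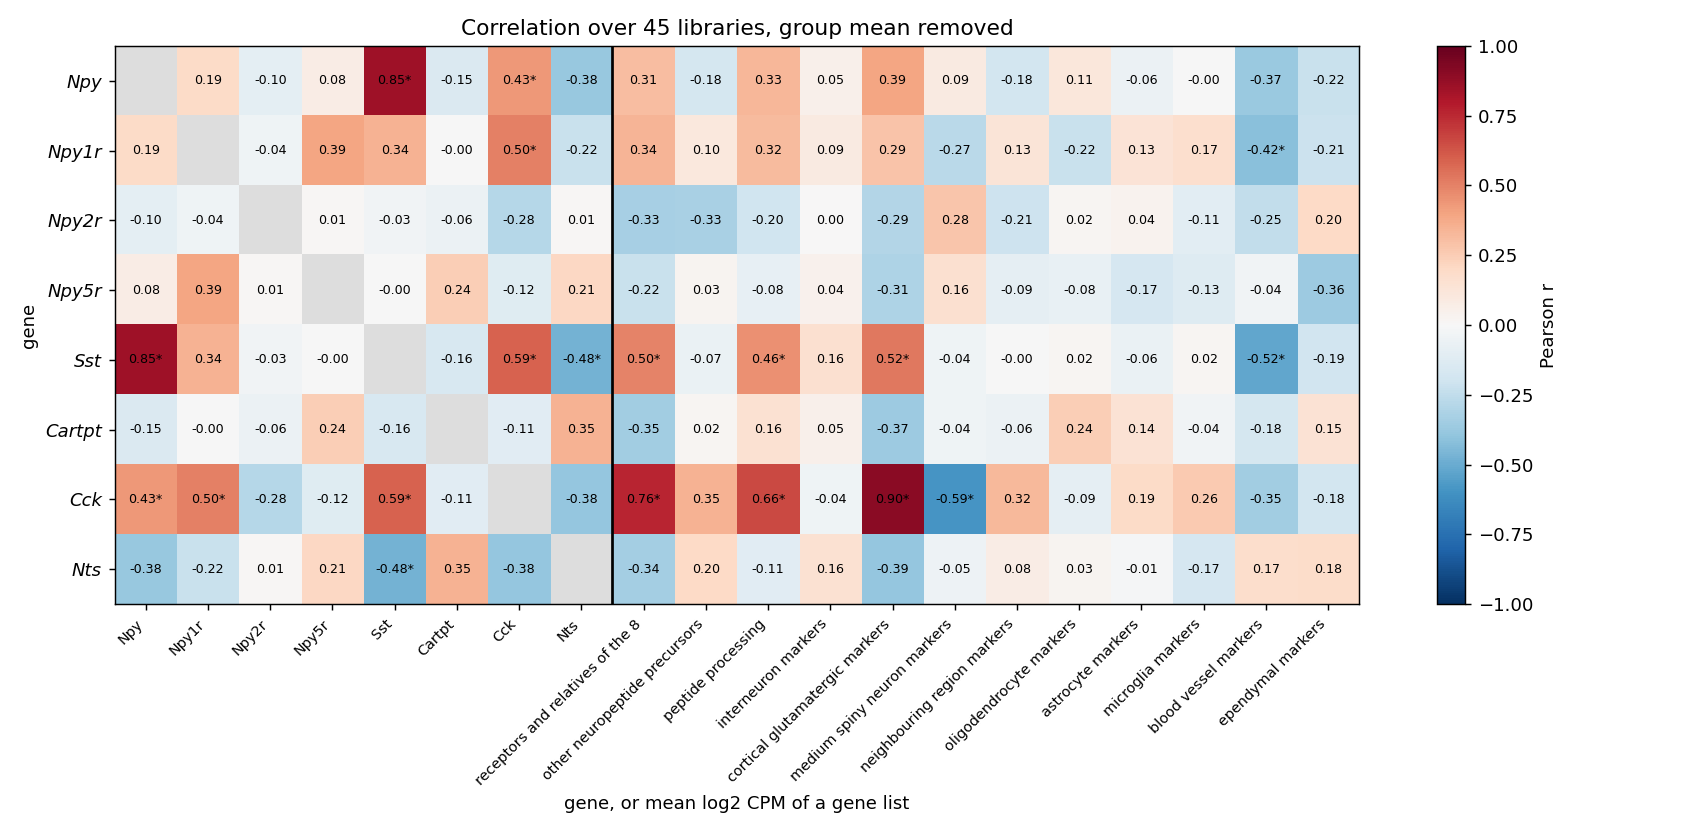
Pearson r over 45 libraries, group mean removed, between the 8 genes (left of the line) and between each gene and the mean log2 CPM of 12 gene lists (right of the line). Npy with Sst (0.85) and Cck with the cortical score (0.90) are the deepest cells, and Sst with Nts (-0.48) is negative.

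The partners of these peptides showed the same picture of no calls. Of 15 listed receptors and relatives 11 were tested, and 0 passed in any contrast. The 4 not tested were Npy4r, Npy6r, Pyy and Ppy, the remaining receptors and peptides of the neuropeptide Y family. Ppy had 0 reads in all 45 libraries and Pyy 1 read in all, while Npy4r totalled 20 reads and Npy6r 93. Sort1, a sorting receptor that binds neurotensin, averaged 476 CPM ± 37.2 (SD, n = 45) and Ntsr2 72.4 CPM ± 7.86. The gastrin and cholecystokinin receptor gene Cckbr averaged 24.9 CPM ± 5.25, and the somatostatin receptor genes Sstr1 to Sstr5 between 7.87 CPM (Sstr3) and 16.1 CPM (Sstr1).

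By the smallest p, the receptor list was led for CNO averaged over fluids by Cckar, with a log2 difference of 0.80 ± 0.25 (edgeR, adjusted p = 0.14), at a mean of 0.393 CPM. Sstr4 followed at 0.14 ± 0.07 (adjusted p = 0.50). For alcohol averaged over treatments it was led by Sstr2, at -0.25 ± 0.09 (edgeR, adjusted p = 0.31), and Cckbr, at -0.19 ± 0.08 (adjusted p = 0.37). At an unadjusted p under 0.05 (edgeR) the list had 3 of 11 for alcohol averaged, beside 12.0% of all tested genes. For CNO averaged it had 2 of 11, beside 9.30%. The list was not tested as a set. The medians of the 11 tested genes were 0.06 for CNO and -0.09 for alcohol, against 0.00 for all tested genes in both.

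Of 48 other neuropeptide precursor genes 26 were tested, and 0 passed in any contrast. Penk, the enkephalin precursor, averaged 1076 CPM ± 120 (SD, n = 45), Tac1, the substance P precursor, 299 CPM ± 39.6 and Pdyn, the dynorphin precursor, 297 CPM ± 33.3. All are known from medium spiny neurons. For alcohol averaged over treatments 0 of 26 were at an unadjusted p under 0.05 (12.0% of all tested genes), and the list was led by Edn1, the endothelin 1 precursor, at a log2 difference of 0.17 ± 0.10 (edgeR, adjusted p = 0.48) and Gnrh1 at -0.37 ± 0.23 (adjusted p = 0.52). For CNO averaged over fluids it had 1, Nmb, the neuromedin B precursor, at -0.26 ± 0.12 (edgeR, adjusted p = 0.51), beside 9.30% of all tested genes. The list medians were -0.02 and -0.03.

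All 18 genes of peptide processing and dense core vesicles were tested, and 0 passed in any contrast. They were abundant, with carboxypeptidase E (Cpe) at 1847 CPM ± 148 (SD, n = 45) and the convertase gene Pcsk2 at 409 CPM ± 34.2, while Pcsk1 was at 17.5 CPM ± 3.64. For CNO averaged over fluids the list was led by Cadps, a vesicle priming gene, at 0.15 ± 0.05 (edgeR, adjusted p = 0.17) and Cadps2 at 0.27 ± 0.13 (adjusted p = 0.50). For alcohol averaged over treatments it was led by Pcsk1n, a convertase inhibitor gene, at -0.18 ± 0.06 (edgeR, adjusted p = 0.28) and Chgb at -0.04 ± 0.03 (adjusted p = 0.53). At an unadjusted p under 0.05 (edgeR) it had 3 of 18 for CNO averaged, beside 9.30% of all tested genes, and 1 of 18 for alcohol averaged, beside 12.0%. The list medians were 0.00 and -0.01.

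The score of the receptor list followed Cck (r = 0.76, rho = 0.65, permutation test, adjusted p = 0.00031) and Sst (r = 0.50, rho = 0.45, adjusted p = 0.013). The processing score followed both as well, at r = 0.66 with Cck (rho = 0.71, permutation test, adjusted p = 0.00031) and r = 0.46 with Sst (rho = 0.46, adjusted p = 0.018). With the no-feature share and the cortical score removed these became 0.01, 0.18, 0.17 and -0.06, and none passed.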

How the data were processed

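RNA from nucleus accumbens punches (500 ng per library, Illumina TruSeq) was sequenced in 45 mice. Per the labels and the submitters' processing notes, the authors ran FastQC, aligned with STAR to GRCm38 (mm10), counted with HTSeq 0.9.1 and deposited raw counts of reads per gene symbol. Neither the annotation nor the strand setting nor the counting mode is given in these sources. HTSeq's 5 summary rows were kept out of library sizes, and reads in no feature made up 15.6% to 21.9% of uniquely aligned reads.

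Groups came from the labels. Genes were filtered by group with filterByExpr (15852 kept) and scaled by TMM. A robust quasi-likelihood fit with 1 coefficient per group over all 45 libraries (edgeR 4.0.16, R 4.3.3) gave 7 contrasts, called at an adjusted p under 0.05. Standard errors are the log2 difference divided by the square root of F. Log2 CPM used a prior count of 2. Correlations used 100000 permutations within groups (Python 3.11.15, numpy 2.4.6), and scores leave out the 8 genes. Covariates were removed before the permutations and were not fitted again in them. Genes most like each gene were the 3 of highest rho among tested genes at a mean log2 CPM of 1 or more. For none of the 8 were these rho tested against the highest that chance gives. From each further list, passing genes or else the 2 of smallest p were named. Abundant members are named as examples of level. The fit was tested on simulated data, with 50 genes changed at each fold and 6 to 14 false calls per contrast.

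Exon lengths are from GENCODE vM21 and promoters from RefSeq. DESeq2 1.42.0, limma 3.58.1 and other alternatives are given in the closing section. The 8 genes and the lists were chosen with earlier results of these data known. P-values measure the spread between mice. Tubes 1 to 24 held alcohol samples and 25 to 46 water samples, so fluid and tube order cannot be told apart.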

Additional observations from a re-analysis of the deposited data

How the results depend on the processing

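None of the 8 genes was called in any contrast under 13 alternatives (704 values, smallest adjusted p 0.21) or with each of the 45 libraries left out in turn (2520 values, smallest adjusted p 0.13). The alternatives were other size factors, 2 filters, 3 covariates, 2 sets of libraries left out, only the groups compared, thinned counts, an adjusted p under 0.1, DESeq2 and limma voom. Direction was kept in 683 of 704 values. These include the setting with an adjusted p under 0.1, which uses the main fit and so could not change a direction. The other 21 belonged to log2 differences of at most 0.026 in size, and the cause was not tested. They were, for the Npy interaction, 0.00035 at a mean CPM of at least 1, 0.020 with S-number block, 0.020 with the cortical score, 0.048 with the no-feature share and 0.011 with thinned counts. Nts for CNO in water drinkers gave 0.045, 0.0080 and 0.012 with the same 3 covariates and 0.00014 with limma voom. Cartpt for alcohol averaged gave 0.015 with S-number block, 0.022 with the no-feature share, 0.023 without the libraries of low cortical score, 0.0059 with thinned counts and 0.064 with limma voom. Nts for alcohol averaged gave -0.038 with the cortical score, -0.0086 with the no-feature share and -0.023 without the low cortical libraries. Npy1r for alcohol under vehicle gave -0.0083 without alcohol vehicle replicates 5 and 10 and -0.023 with limma voom. Npy5r gave -0.0041 for CNO averaged without the low cortical libraries and 0.0044 for alcohol averaged with thinned counts.

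Leaving out single libraries reversed 75 of 2520 values, in 13 results. Their log2 ranges for alcohol under vehicle were -0.025 to 0.058 (Npy1r), -0.30 to 0.028 (Cck) and -0.0092 to 0.11 (Nts). For CNO they were -0.10 to 0.25 (Cck, alcohol drinkers), -0.057 to 0.015 (Sst, water drinkers), -0.060 to 0.059 (Nts, water drinkers) and -0.050 to 0.012 (Cartpt, averaged). For alcohol under CNO the range was -0.11 to 0.0094 (Nts). For the interaction the ranges were -0.027 to 0.038 (Npy) and -0.019 to 0.082 (Npy1r). For alcohol averaged they were -0.0050 to 0.055 (Npy2r), -0.024 to 0.030 (Cartpt) and -0.026 to 0.040 (Nts).

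The correlations of Npy with Sst and of Npy1r with Cck passed under every alternative run. Npy with Cck fell to 0.33 with the no-feature share removed and to 0.11 with the cortical score removed too. Under that second setting Sst with Cck was 0.25, Sst with Nts -0.37, and Sst with the processing score reversed to -0.060. Of the 14 pairs past the threshold 12 were lost there, and 4 others were gained. The cortical score is itself removed there, so its own pairs have no meaning. The 3 gene pairs lost were Npy with Cck, Sst with Cck and Sst with Nts, and 2 gene pairs were gained. Cartpt with Cck, at -0.11, reversed to 0.49 there and to 0.053 without the low cortical libraries. Npy with the receptor score reversed to -0.013 and Cck with the neighbouring region score to -0.18 with both covariates. S-number block as a covariate raised the pairs past the threshold from 14 to 30 of 124 and from 5 to 10 of 28 gene pairs, and none was lost. The values were permuted within groups without fitting the blocks again, so the p-values under this setting are too small. The rise can therefore not be read as more pairs varying together. The gene pairs gained were Npy with Nts (-0.44), Npy1r with Npy5r (0.41), Npy2r with Cck (-0.44), Cartpt with Nts (0.43) and Cck with Nts (-0.49). Npy1r with Npy5r also passed with both covariates (0.53) and without the low cortical libraries (0.49). The use of the no-feature share in correlations, of both covariates and of the low cortical libraries was chosen after seeing the data. No paired analysis was possible because the labels give no replicate numbers shared between groups. Npy5r had the fewest reads of the 8, and Cck the widest intervals.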

Other observations

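Scg5, which encodes the 7B2 chaperone of the convertase PC2, was chosen for mention after its values were seen. The 45 libraries were cut into 3 ranges at the 2 widest gaps in its ordered log2 levels. Any gene cut in this way gives 3 ranges with no library between them. In 27 libraries it lay between 98.1 and 138 CPM, in 16 between 223 and 350 CPM, and in 2 at 447 and 451 CPM. On a log2 scale the gap from 350 to 447 CPM was narrower than the middle range itself. Whether the ranges are distinct was not tested. The lower range held 11 libraries of alcohol drinkers (6 CNO and 5 vehicle) and 16 of water drinkers (8 CNO and 8 vehicle), and the middle range 11 (6 and 5) and 5 (3 and 2). The upper range held 1 alcohol vehicle and 1 water vehicle library. No other gene of the processing list was examined in this way.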
